A study of Arabidopsis thaliana with 12 samples.

Results

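The Aux/IAA genes of Arabidopsis thaliana encode repressors of the auxin response. The 10 members followed here were chosen by gene identifier: IAA1 (AT4G14560), IAA2 (AT3G23030), IAA3 (AT1G04240, also SHY2), IAA5 (AT1G15580), IAA7 (AT3G23050, also AXR2), IAA14 (AT4G14550, also SLR), IAA17 (AT1G04250, also AXR3), IAA19 (AT3G15540), IAA28 (AT5G25890) and IAA29 (AT4G32280). Of them, 9 had a row among the 26568 rows of the count table, and all 9 were among the 19327 genes that passed the filter on low counts. IAA28 is not analysed here. Roots of 2 natural ecotypes were compared, Or-1, which the study characterised as NH4+-tolerant, and Rak-2, which it characterised as NH4+-sensitive. Seedlings had 5 d on NO3-, were then kept without nitrogen, and were given 1 mM ammonium sulfate or 1 mM calcium nitrate for 1 d. The 4 groups were Or-1 under NH4+, Or-1 under NO3-, Rak-2 under NH4+ and Rak-2 under NO3-, each of 3 RNA-seq libraries from whole roots, so that no cell type was separated. The sulfate brought by the ammonium salt cannot be told apart from the nitrogen form. Fewer cells of a type and less RNA per cell cannot be told apart in such bulk samples.

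Aux/IAA proteins are short-lived nuclear proteins that bind auxin response factors (ARFs) at auxin-inducible genes and bring in the corepressor TOPLESS (TPL). Auxin acts as a glue between the F-box receptors TIR1/AFB and a short stretch of the Aux/IAA protein, the degron, after which the repressor is tagged with ubiquitin and degraded and the ARFs are released. Many Aux/IAA genes are themselves induced by auxin, so that their transcripts are part of a feedback loop. In roots, IAA14 is known from the solitary-root mutant, which makes no lateral roots, and IAA3 from its part in setting the size of the meristem. IAA7 and IAA17 are known from gain-of-function mutants with altered gravitropism and root hairs.

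The degron is shown because it is the part of these repressors that auxin acts on. It was read from the reference assembly and not from Or-1 or Rak-2. The coding sequences below were read from the RefSeq annotation of the TAIR10.1 assembly, each as a stretch of 39 bases on the coding strand, 5′ to 3′, with the 15 bases that encode the core (glycine, tryptophan, proline, proline, valine) in capitals. Genes on chromosome 3 are IAA2, IAA7 and IAA19, those on chromosome 1 are IAA3, IAA5 and IAA17, and those on chromosome 4 are IAA1, IAA14 and IAA29.
IAA7: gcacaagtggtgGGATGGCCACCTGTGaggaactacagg
IAA14: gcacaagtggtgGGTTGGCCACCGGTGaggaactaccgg
IAA17: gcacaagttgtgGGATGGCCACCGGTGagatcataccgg
IAA3: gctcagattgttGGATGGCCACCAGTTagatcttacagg
IAA1: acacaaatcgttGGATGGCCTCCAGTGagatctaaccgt
IAA2: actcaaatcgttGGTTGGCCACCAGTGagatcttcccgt
IAA19: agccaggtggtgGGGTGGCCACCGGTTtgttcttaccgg
IAA5: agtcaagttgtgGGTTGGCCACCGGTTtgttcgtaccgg
IAA29: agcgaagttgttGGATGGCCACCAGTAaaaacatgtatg
All 9 stretches encode the same core, but with 9 different runs of codons. IAA7 and IAA14 were the most alike, with 36 of 39 bases identical, and the least alike of the 36 pairs shared 22. Over whole transcripts, the longest identical run of any pair was 41 bases, again between IAA7 and IAA14, followed by 29 bases. Reads that fall wholly in such a run could be assigned to either gene, and the read length used in counting was not given in the sources used here. IAA3 overlapped a gene on the opposite strand (AT1G04230) over 640 bases and IAA5 another (AT1G15570) over 48 bases, and no strand setting was given for the counting, so reads from these stretches cannot be assigned with certainty. There were 3 pairs of neighbours with 0 protein-coding genes between them, namely IAA1 and IAA14, IAA2 and IAA7, and IAA3 and IAA17.

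The libraries held 16005610 to 22388738 counts. Of 11 root marker genes, 10 were above 1 CPM in every library (CPM, counts as a share of 1000000 counts of the library after scaling by TMM factors), and the exception, the root hair gene COBL9, had a lowest value of 0.766 CPM. Of 7 shoot and leaf markers, 5 had a row, and their summed level varied widely between libraries, with 1.64 to 70.5 CPM in Or-1 under NH4+, 33.5 to 110.4 CPM in Or-1 under NO3-, 56.2 to 241 CPM in Rak-2 under NH4+ and 3.70 to 99.2 CPM in Rak-2 under NO3-. The summed level of the 11 root markers was 227.9 to 302.1 CPM in Or-1 under NH4+, 258.6 to 335.2 CPM in Or-1 under NO3-, 213.6 to 245.5 CPM in Rak-2 under NH4+ and 157.8 to 300.2 CPM in Rak-2 under NO3-. The Rak-2 libraries under NO3- were the most spread, with a median SD over genes of 0.28 on the log2 CPM scale, against 0.15 to 0.21 in the other groups.

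The members spanned a wide range of levels, which were compared between genes as FPKM (CPM per kilobase of the gene length in the count table). IAA2, whose promoter is widely used as an auxin reporter, was the highest member in all 4 groups, with 75.4 ± 23.8 FPKM in Or-1 under NH4+, 100.8 ± 30.1 FPKM in Or-1 under NO3-, 46.8 ± 5.45 FPKM in Rak-2 under NH4+ and 112.6 ± 23.7 FPKM in Rak-2 under NO3- (SD, n = 3 each). IAA17 followed it in every group, at 39.7 ± 7.11 FPKM in Or-1 under NH4+, 53.2 ± 5.63 FPKM in Or-1 under NO3-, 32.8 ± 3.08 FPKM in Rak-2 under NH4+ and 40.9 ± 3.56 FPKM in Rak-2 under NO3-. The libraries of IAA2 did not overlap those of IAA17, nor those of IAA17 those of IAA7, in any group. IAA7 came next in every group, with means of 13.7 to 21.2 FPKM, and overlapped IAA14 in all groups but Rak-2 under NH4+. Below them the order was only partly resolved: IAA14, IAA3, IAA19 and IAA1 had means of 2.90 to 13.9 FPKM and changed places between groups. In Or-1 under NH4+, IAA19 (6.26 to 7.67 FPKM) lay above IAA1 (5.19 to 5.85 FPKM) with no overlap. In Or-1 under NO3-, IAA19 (2.23 to 3.99 FPKM) lay below IAA1 (5.06 to 7.98 FPKM), again with no overlap. IAA29 and IAA5 were at the bottom in every group, with means of 0.192 to 0.868 FPKM, and rested on 2 to 25 counts a library.

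The 9 members together summed to 159.5 ± 12.6 FPKM in Or-1 under NH4+ and 201.0 ± 24.7 FPKM in Or-1 under NO3-, and to 117.5 ± 8.63 FPKM in Rak-2 under NH4+ and 204.9 ± 34.6 FPKM in Rak-2 under NO3- (SD, n = 3 each). In each ecotype the highest library under NH4+ was below the lowest under NO3-, with 146 to 172 FPKM against 173 to 220 FPKM in Or-1 and 112 to 127 FPKM against 175 to 243 FPKM in Rak-2. IAA2 was the largest part of this sum and on average made up 46.9% of it in Or-1 under NH4+, 49.4% in Or-1 under NO3-, 39.7% in Rak-2 under NH4+ and 54.8% in Rak-2 under NO3-. The sum is a description and was not tested.

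**Figure D1:**
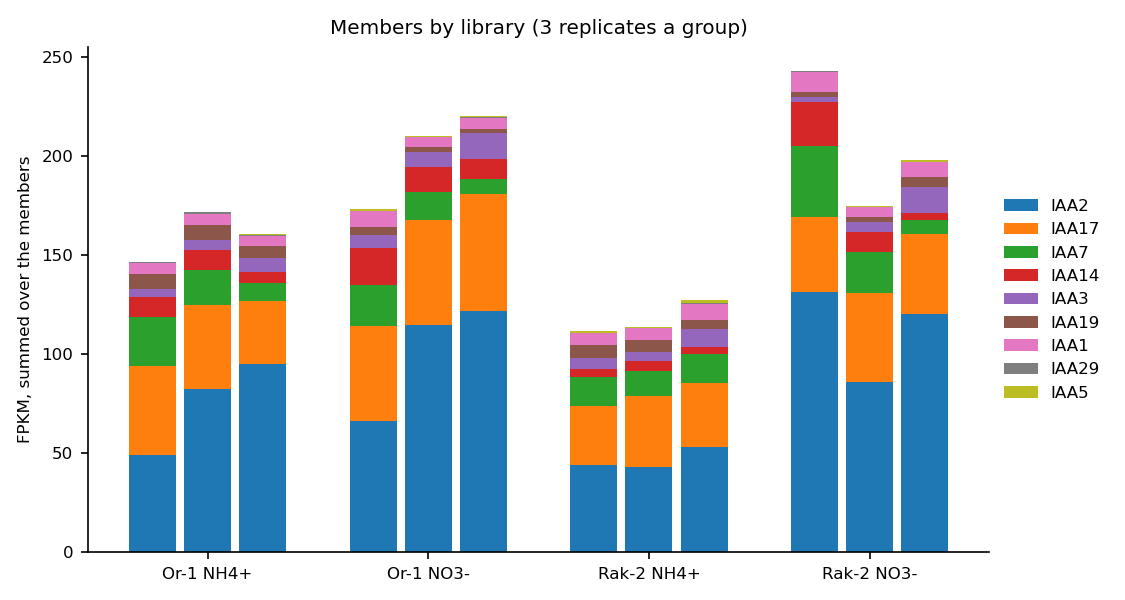
Stacked FPKM of the 9 measured members (y axis, FPKM summed over the members) in each of the 12 libraries (x axis, 3 bars a group, replicates 1 to 3 from left to right). IAA2 and IAA17 form the lower part of every bar, and the bars under NH4+ end at 112 to 172 FPKM, below the bars under NO3- at 173 to 243 FPKM.

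The first comparison was the response to NH4+ in Or-1. A gene was called where edgeR's quasi-likelihood F test gave a Benjamini-Hochberg FDR under 0.05 over all 19327 genes and the log2 fold change was over 1 in size. By this rule 8.86% of all genes were called, and among the members 1 of 9, IAA19, was called. IAA19, a repressor known from the tropic growth of hypocotyls, had 7.54, 7.74 and 6.32 CPM in Or-1 under NH4+, against 4.02, 2.50 and 2.25 CPM in Or-1 under NO3-. All NH4+ libraries lay above all NO3- libraries. IAA19 rose by 1.30 on the log2 scale (SE 0.32, 95% interval 0.59 to 2.01, edgeR FDR = 0.0182). The call was lost when 1 of 3 libraries was left out (Or-1 under NH4+ replicate 2, or Or-1 under NO3- replicate 2 or 3), with log2 fold changes of 1.17 to 1.62 over all 6 such fits.

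The remaining 8 members did not pass the test in Or-1. IAA17, which acts in root gravitropism and root hair growth, had 59.1, 56.1 and 41.6 CPM in Or-1 under NH4+, against 62.7, 69.7 and 77.6 CPM in Or-1 under NO3-. The groups did not overlap, and the log2 fold change was -0.42 (SE 0.14, edgeR FDR = 0.0721). IAA14 had 17.4, 17.5 and 9.58 CPM in Or-1 under NH4+, against 32.3, 22.0 and 17.5 CPM in Or-1 under NO3-. Here the highest NH4+ library was just below the lowest NO3- library, and the log2 fold change of -0.69 had an SE of 0.50. IAA19, IAA17 and IAA14 were thus the 3 of 9 members whose groups did not overlap, where 36.5% of all genes did not overlap. IAA2 had 66.5, 111.7 and 128.9 CPM in Or-1 under NH4+, against 90.0, 155.4 and 165.3 CPM in Or-1 under NO3-, which overlap. Its log2 fold change in Or-1 was -0.42 (SE 0.27, edgeR FDR = 0.348). Same-numbered libraries of Or-1 deviated together, and with the replicate number as a block over the 6 Or-1 libraries alone, a fit added after the data were seen, the FDR was 0.0215 for IAA3, 0.0328 for IAA14 and 0.0399 for IAA2. Their log2 fold changes stayed under 1 in size there, at -0.75, -0.68 and -0.41, so none was called. With the planned block over all 4 groups, the edgeR FDR was 0.126 for IAA3, 0.192 for IAA14 and 0.249 for IAA2. Over the 6 Or-1 libraries without a block, it was 0.145, 0.185 and 0.435. The share of all genes under the FDR at any fold in the block fits is not given here. Over the 9 members, 3 log2 fold changes were positive and 6 negative with a median of -0.42, beside a median of -0.04 over all genes.

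The second comparison was the response in Rak-2, in which 6.09% of all genes and again 1 of 9 members were called, here IAA2. IAA2 had 60.0, 58.5 and 72.0 CPM in Rak-2 under NH4+, against 178.5, 116.8 and 163.3 CPM in Rak-2 under NO3-. Every NH4+ library was well below every NO3- library. IAA2 fell by 1.27 on the log2 scale (SE 0.28, 95% interval -1.88 to -0.66, edgeR FDR = 0.0144). The call was lost without Rak-2 under NH4+ replicate 1 or 2 or without Rak-2 under NO3- replicate 1, with log2 fold changes of -1.42 to -1.13 over the 6 fits.

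IAA14, whose product blocks lateral root initiation, had 7.08, 9.36 and 6.37 CPM in Rak-2 under NH4+, against 38.4, 17.0 and 6.56 CPM in Rak-2 under NO3-. The NO3- libraries differed 5.86-fold among themselves, and replicate 3 lay within the range of the NH4+ libraries. The log2 fold change was -1.44 (SE 0.51, edgeR FDR = 0.0924), and it became -1.86 and was called (FDR = 0.00976) without Rak-2 under NO3- replicate 3, while it became -0.62 without Rak-2 under NO3- replicate 1. The summed root markers in these NO3- libraries were 300.2, 269.7 and 157.8 CPM, against 242.7, 245.5 and 213.6 CPM in Rak-2 under NH4+, so that the library low in IAA14 was also the lowest in root markers, and the part of this in the result was not tested. IAA19 had 6.58, 6.33 and 4.90 CPM in Rak-2 under NH4+, against 2.93, 2.21 and 5.09 CPM in Rak-2 under NO3-. The log2 fold change of IAA19 in Rak-2 was 0.80 (SE 0.32, edgeR FDR = 0.127), with 1 NO3- library above the lowest NH4+ library. Without that library, replicate 3, IAA19 was called as well, at 1.21.

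IAA17 had 39.3, 47.4 and 42.8 CPM in Rak-2 under NH4+, against 49.7, 58.9 and 52.8 CPM in Rak-2 under NO3-. IAA17 and IAA2 were the 2 of 9 members whose groups did not overlap in Rak-2, where 32.1% of all genes did not, and the log2 fold change of IAA17 was -0.32 (SE 0.15, edgeR FDR = 0.173). Over the members in Rak-2, 3 values were positive and 6 negative with a median of -0.18, beside -0.01 over all genes.

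**Figure D2:**
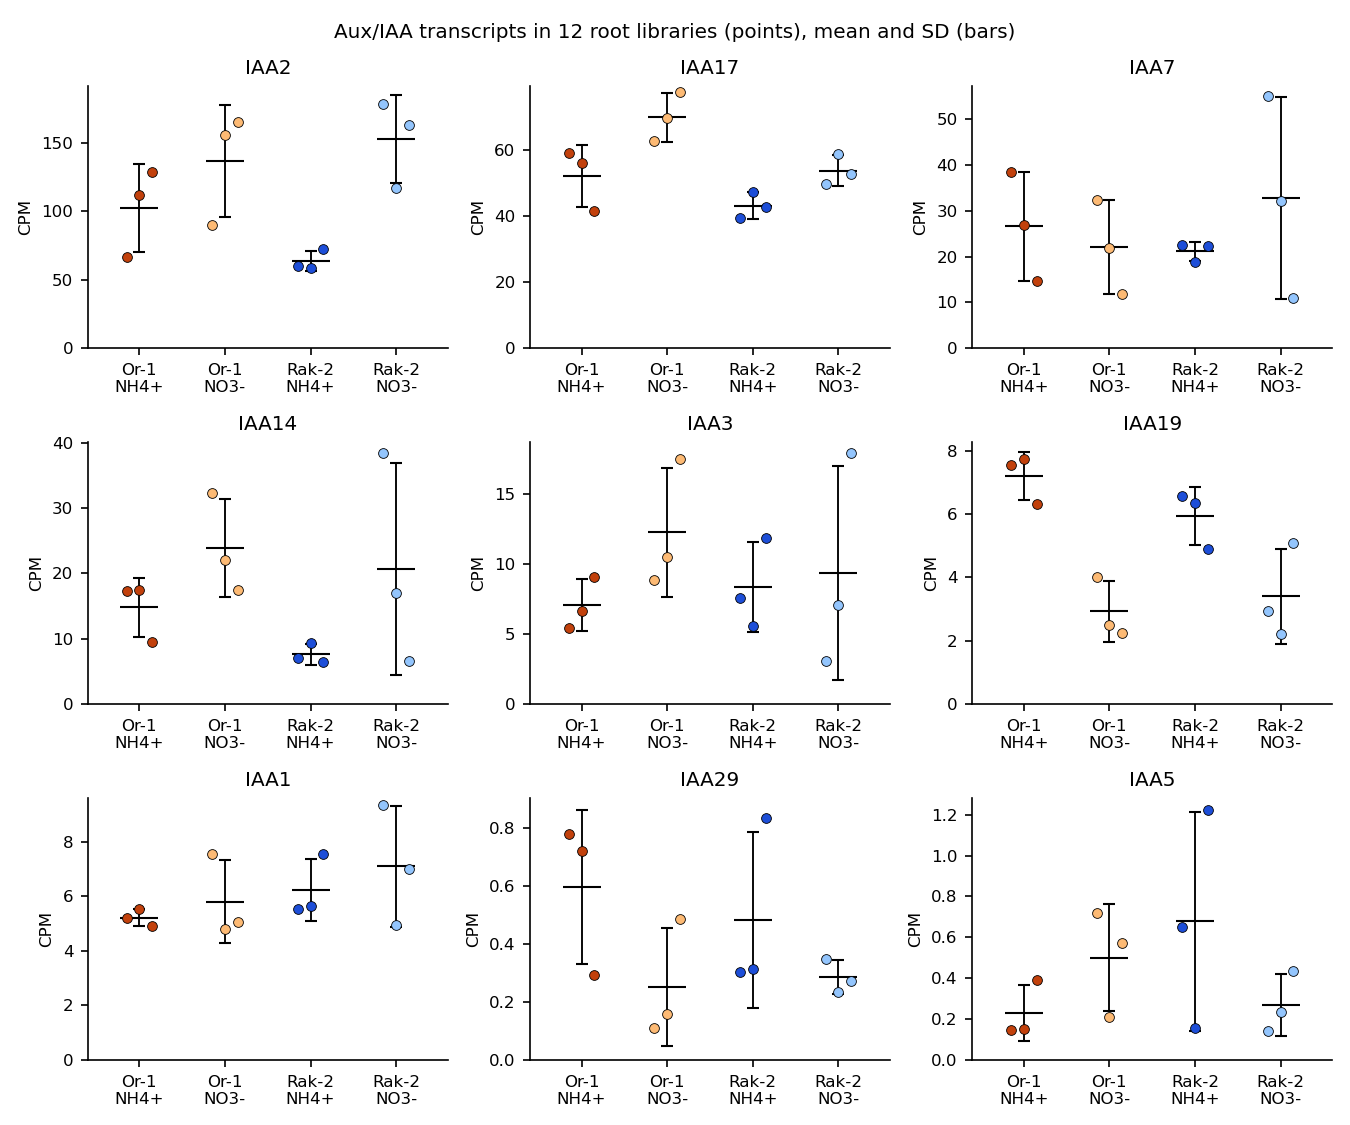
CPM (y axis, linear from 0, scaled for each gene) of the 9 measured members in the 4 groups (x axis). Points are libraries, replicates 1 to 3 from left to right, and bars are the mean ± SD (n = 3). IAA19 is higher under NH4+ in Or-1 with no overlap, IAA2 is lower under NH4+ in Rak-2 with no overlap, and IAA7, IAA14 and IAA3 spread widely among the Rak-2 NO3- libraries.

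The other members spread widely between replicates or rested on few counts. IAA7 had 38.4, 26.9 and 14.6 CPM in Or-1 under NH4+, against 32.4, 21.9 and 11.8 CPM in Or-1 under NO3-, and 22.4, 18.8 and 22.3 CPM in Rak-2 under NH4+, against 55.0, 32.2 and 10.9 CPM in Rak-2 under NO3-. IAA3 had 5.40, 6.67 and 9.09 CPM in Or-1 under NH4+, against 8.82, 10.5 and 17.5 CPM in Or-1 under NO3-, and 7.58, 5.60 and 11.9 CPM in Rak-2 under NH4+, against 3.07, 7.09 and 17.9 CPM in Rak-2 under NO3-. Both genes overlapped between the nitrogen forms in both ecotypes, although IAA3 was lower under NH4+ in all 3 same-numbered pairs of Or-1. IAA1 had 4.91 to 5.54 CPM in Or-1 under NH4+, 4.78 to 7.55 CPM in Or-1 under NO3-, 5.52 to 7.54 CPM in Rak-2 under NH4+ and 4.93 to 9.35 CPM in Rak-2 under NO3-. Its log2 fold change was -0.15 in Or-1 (95% interval -0.73 to 0.43), against -0.18 for Rak-2 (95% interval -0.76 to 0.40). IAA5, an early auxin-induced gene, had a log2 fold change of -1.102 in Or-1 (SE 0.77) and 1.29 in Rak-2 (SE 0.75), and IAA29, known as a target of light-regulated transcription factors in shoots, 1.18 (SE 0.64) and 0.77 (SE 0.66). None of these was called in the fit over all libraries.

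**Figure D3:**
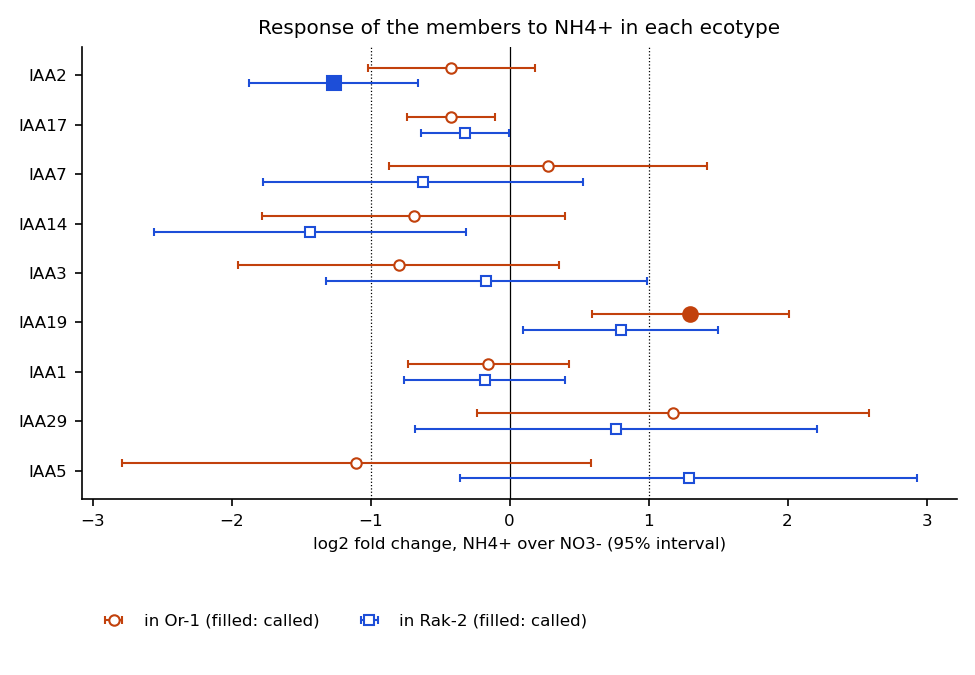
Log2 fold change, NH4+ over NO3- (x axis), of each member (y axis) in Or-1 (circles) and Rak-2 (squares) from edgeR, with 95% intervals as bars. Filled symbols mark the called genes, which are IAA19 in Or-1 at 1.30 and IAA2 in Rak-2 at -1.27, and dotted lines mark the threshold of 1 in either direction.

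Because IAA19 was called in Or-1 and IAA2 in Rak-2, the difference between the responses was tested itself, as an interaction over all 12 libraries. This comparison called 1.23% of all genes and 0 of 9 members, while 1 member (IAA5) had an unadjusted p under 0.05, as had 18% of all genes, and DESeq2 called 0. For IAA2 the response in Or-1 minus that in Rak-2 was 0.85 (SE 0.39, 95% interval -0.003 to 1.70, edgeR FDR = 0.279). For IAA19 it was 0.50 (SE 0.45, 95% interval -0.49 to 1.49, edgeR FDR = 0.610), and for IAA5 -2.39 (SE 1.07, edgeR FDR = 0.270). A different response of any member in the 2 ecotypes was therefore not shown, and the intervals are too wide to show an equal one. Over the members, 6 differences were positive and 3 negative with a median of 0.41, beside -0.01 over all genes.

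The ecotypes were also compared under each nitrogen form. Under NH4+, 12.2% of all genes were called between Or-1 and Rak-2, and 0 of 9 members, with 1 member at an unadjusted p under 0.05 (IAA2) and 0 called by DESeq2. Over all genes, 36.5% had an unadjusted p under 0.05 there. IAA2 had 66.5, 111.7 and 128.9 CPM in Or-1 under NH4+, against 60.0, 58.5 and 72.0 CPM in Rak-2 under NH4+, a log2 fold change of 0.69 (SE 0.28, edgeR FDR = 0.0944) with overlapping groups. IAA14 was the 1 member whose groups did not overlap under NH4+, with 17.4, 17.5 and 9.58 CPM in Or-1, against 7.08, 9.36 and 6.37 CPM in Rak-2, where 48.8% of all genes did not overlap. Its log2 fold change between the ecotypes was 0.96 (SE 0.51, edgeR FDR = 0.195). With the replicate number as a block over these 6 libraries, which also deviated together by number, the FDR was 0.00819 for IAA14 and 0.0209 for IAA2. The log2 values were 0.92 and 0.63 and stayed under 1. This fit, too, was added after the data were seen. The share of all genes under the FDR at any fold in the block fit is not given here.

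Under NO3-, 8.64% of all genes were called between the ecotypes and 0 of 9 members, with 1 member at an unadjusted p under 0.05 (IAA17) and 0 called by DESeq2. Over all genes, 25.1% had an unadjusted p under 0.05 there. IAA17 was also the 1 member whose groups did not overlap under NO3-, with 62.7, 69.7 and 77.6 CPM in Or-1, against 49.7, 58.9 and 52.8 CPM in Rak-2, where 26.2% of all genes did not overlap. Its log2 fold change was 0.38 (SE 0.14, edgeR FDR = 0.121). For the most abundant member, IAA2, Or-1 over Rak-2 under NO3- was -0.16 (95% interval -0.76 to 0.44). The median over the members was 0.28 under NH4+ and -0.11 under NO3-, beside -0.002 and -0.02 over all genes.

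The proximal promoters of IAA19 and IAA2, the 2 members that were called, are shown. They were read from the reference assembly and not from Or-1 or Rak-2, so they hold no information on a difference between the ecotypes. Each is the 250 bases before the start of the gene in the RefSeq annotation of TAIR10.1, on the strand of the gene, 5′ to 3′. Capitals mark matches on either strand to TGTCTC and TGTCGG, the hexamers by which auxin response elements, the sites that ARFs bind, are usually recognised; the 2 hexamers share their first 4 bases but cannot match at the same position.
IAA19 (chr3:5263751-5264000, plus strand): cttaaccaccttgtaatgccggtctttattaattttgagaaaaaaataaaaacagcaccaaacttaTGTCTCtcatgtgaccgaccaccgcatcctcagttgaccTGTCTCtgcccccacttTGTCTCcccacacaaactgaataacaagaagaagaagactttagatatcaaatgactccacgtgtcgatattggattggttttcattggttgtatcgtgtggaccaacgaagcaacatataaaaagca
IAA2 (chr3:8182096-8182345, minus strand): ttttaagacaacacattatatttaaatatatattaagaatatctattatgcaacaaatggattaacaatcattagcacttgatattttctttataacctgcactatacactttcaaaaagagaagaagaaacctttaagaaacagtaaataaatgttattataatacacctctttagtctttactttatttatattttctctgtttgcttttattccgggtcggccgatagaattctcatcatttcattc
IAA19 held 3 matches to TGTCTC, which began at positions -184, -145 and -128 from the start of the gene, and IAA2 held none of either hexamer in this window. The window depends on the annotated start of the gene. The IAA2 transcript used here encoded 261 residues with the degron core from residue 150, against 197 residues and a core from residue 73 in IAA19. Bases inside the annotated transcript were not searched, so the absence of a match holds for this window alone. Among 27443 protein-coding genes of the nuclear chromosomes, 10.9% of such windows held TGTCTC at least once and 0.106% at least 3 times, and 4.16% held TGTCGG. IAA1 and IAA5, neither of which was called, held both hexamers, so that 3 of 9 members had TGTCTC and 2 of 9 TGTCGG. A match is a description of the letters and not a bound site.

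Within the groups, replicates did not deviate independently from gene to gene. When each library was expressed as its log2 CPM minus the mean of its group, IAA7 and IAA14 deviated together over the 12 libraries (Pearson r = 0.91), while IAA3 deviated in the opposite direction to IAA14 (r = -0.96) and to IAA7 (r = -0.86). These were the strongest of the 36 pairs of members, and the next in size was IAA3 with IAA5 (r = 0.65). Without replicates 1 and 3 of Rak-2 under NO3-, the libraries farthest out, these 3 values were 0.80, -0.86 and -0.66 over 10 libraries. In each of the 4 groups IAA3 was highest in replicate 3, and IAA14 was lowest there. The values are descriptions over 12 libraries that share their group means and their depth with each other, and IAA7 and IAA14 share a stretch of sequence as given above. IAA3 had an identical run of at most 14 bases with either of them, but overlapped AT1G04230 on the opposite strand over 640 bases, as given above. The part of that overlap in its deviations was not tested.

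The same deviations moved with the root markers. The summed root markers had r = 0.95 with IAA14, r = 0.93 with IAA7 and r = -0.92 with IAA3 within groups, against -0.67, -0.48 and 0.62 for the summed shoot and leaf markers. Over the 10 libraries without the same pair, r with the summed root markers was 0.88 for IAA14, 0.84 for IAA7 and -0.79 for IAA3. All 11 root markers taken singly had a positive r with IAA14 (0.42 to 0.89) and with IAA7 (0.29 to 0.97), and all 11 a negative r with IAA3 (-0.87 to -0.48). SCR, a regulator of the endodermis, SMB, a regulator of root cap maturation, and the epidermal regulators WER and GL2 were among those above 0.8 with both IAA14 and IAA7. IAA2, IAA17 and IAA19, in contrast, had r = -0.49, 0.15 and -0.26 with the summed root markers. Between groups, WER was called lower in Or-1 under NH4+ than in Or-1 under NO3- (log2 fold change -1.60) and RHD6, a root hair regulator, was called between the ecotypes under NH4+ (Or-1 over Rak-2, 1.89), whereas the other root markers were not called in any comparison. The part of the root marker levels in the values of IAA7, IAA14 and IAA3 was not tested.

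**Figure D4:**
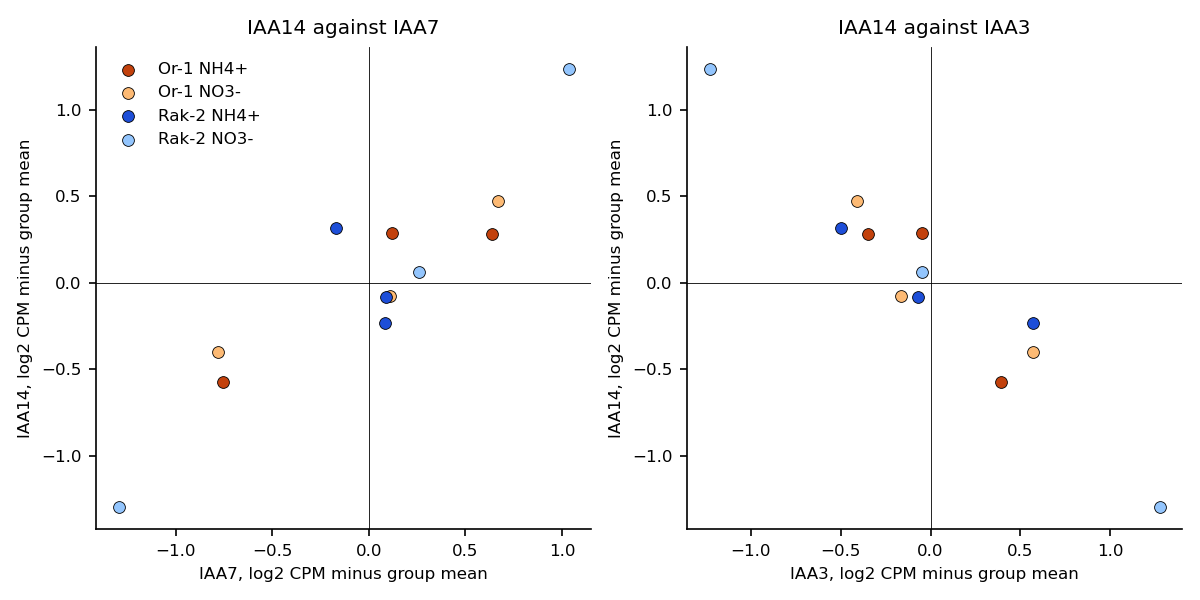
Log2 CPM minus the mean of the group for IAA14 (y axis) against IAA7 (x axis, left) and against IAA3 (x axis, right), with 1 point per library and colours for the 4 groups. The points rise together on the left (r = 0.91) and run in opposite directions on the right (r = -0.96), and the Rak-2 NO3- libraries lie farthest out.

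The genes with profiles most like those of the called members were sought by Pearson's r of log2 CPM over the 12 libraries among the other 19326 tested genes, as a description. For IAA19 these were NUDT2 (r = 0.96) and AT2G25530 (r = 0.93), while the most similar member was IAA29 (r = 0.42). For IAA2 they were MYC3 and AT3G12150 (r = 0.97 each), while the most similar member was IAA17 (r = 0.46). No member thus came near the profile of IAA19 or of IAA2.

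The remaining parts of the auxin pathway were set beside the members, from lists of known genes. Of 19 other Aux/IAA genes 16 were tested, and 0 were called by edgeR in any comparison, although 5 had an unadjusted p under 0.05 in Or-1, as had 3 for Rak-2. Over all genes these shares were 29.3% in Or-1 and 28.7% for Rak-2. IAA18 passed the FDR but not the fold threshold in both ecotypes. Its log2 fold change was 0.71 in Or-1 (edgeR FDR = 0.00318) and 0.79 in Rak-2 (edgeR FDR = 0.00310). IAA10 likewise passed the FDR alone in Or-1, at 0.83 (edgeR FDR = 0.0268). Genes under the FDR at any fold were thus 2 of 16 in Or-1 and 1 of 16 in Rak-2. The share of all genes under the FDR at any fold is not given here, so an excess was not shown. DESeq2 called IAA30 in Or-1 and IAA32 for Rak-2. The median log2 fold change of these 16 genes was 0.18 in Or-1 and 0.25 in Rak-2. In level, IAA9 stood above every member, with 296.6 ± 19.2 FPKM in Or-1 under NH4+, 250.1 ± 28.1 FPKM in Or-1 under NO3-, 341.1 ± 14.2 FPKM in Rak-2 under NH4+ and 260.7 ± 23.4 FPKM in Rak-2 under NO3- (SD, n = 3 each). Among the TIR1/AFB receptors (6 tested), the ARFs (15 tested) and the TPL family of corepressors (5 tested), 0 were called in any comparison by edgeR or by DESeq2, with at an unadjusted p under 0.05 in Or-1 2, 6 and 3 genes and in Rak-2 3, 7 and 0. The 5 TPL genes were all positive in Or-1 (median 0.33) and all negative in Rak-2 (median -0.21). Their median difference between the ecotypes was 0.50, with 4 of 5 at an unadjusted p under 0.05, beside 18% of all genes, and 0 called.

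Auxin synthesis was represented by 8 tested genes, of which 1 was called in Or-1 and 0 in Rak-2 (4 there at an unadjusted p under 0.05, beside 28.7% of all genes, and 0 by DESeq2). YUC5, a flavin monooxygenase of the last step of auxin synthesis, had 6.03, 5.84 and 2.33 CPM in Or-1 under NH4+, against 1.32, 2.23 and 1.103 CPM in Or-1 under NO3-. The groups did not overlap, and YUC5 rose by 1.61 on the log2 scale (SE 0.46, edgeR FDR = 0.0364). The call was lost without any 1 of 4 libraries (Or-1 under NH4+ replicate 1 or 2, Or-1 under NO3- replicate 1 or 3), with values of 1.40 to 1.96 over the 6 fits. In Rak-2, YUC5 had 4.62, 2.88 and 2.16 CPM under NH4+, against 2.16, 1.46 and 0.984 CPM under NO3-, and was not called. TAR2 of the same list went the other way. Its log2 fold change was -0.91 in Or-1 (edgeR FDR = 0.0202) and -0.74 in Rak-2 (edgeR FDR = 0.0587), under the fold threshold in both. YUC6 passed the FDR alone in Rak-2, at 0.58 (edgeR FDR = 0.0437). Over the 8 genes, 6 values were positive and 2 negative in Or-1, against 4 and 4 in Rak-2.

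The genes that ARFs switch on were tested last, as they stand downstream of the repressors. Of 17 tested auxin-inducible genes other than Aux/IAA genes, 6 were called higher and 0 lower in Or-1 under NH4+, beside 8.86% of all genes called in either direction. The median of the 17 genes was 1.19 on the log2 scale, against -0.04 over all genes, with 16 of 17 values positive. DESeq2 called 8 of them higher and 1 lower, GH3.17. In Rak-2, 0 were called higher and 1 lower, with a median of 0.41, against -0.01 over all genes, and 13 of 17 positive. There 7 had an unadjusted p under 0.05, beside 28.7% of all genes, and DESeq2 called 2 higher and 1 lower. GH3.1, GH3.2 and GH3.3, whose products conjugate auxin to amino acids and so lower the free hormone, were among the genes called. GH3.2 had 347.1, 418.9 and 402.3 CPM in Or-1 under NH4+, against 138.4, 58.9 and 54.4 CPM in Or-1 under NO3-. It had 47.1, 34.9 and 44.0 CPM in Rak-2 under NH4+, against 67.1, 19.1 and 10.8 CPM in Rak-2 under NO3-. Thus GH3.2 rose in Or-1 by 2.21 (SE 0.57, edgeR FDR = 0.0217), and under NH4+ its level in Or-1 exceeded that in Rak-2 by 3.21 on the log2 scale (SE 0.59, edgeR FDR = 0.00263). The call within Or-1 was lost without Or-1 under NH4+ replicate 2 or Or-1 under NO3- replicate 2 or 3, with values of 2.01 to 2.80 over the 6 fits, while that between the ecotypes held in all 6.

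GH3.3 had 19.3, 36.8 and 27.8 CPM in Or-1 under NH4+, against 9.15, 5.42 and 3.49 CPM in Or-1 under NO3-, and it rose by 2.22 (SE 0.37, edgeR FDR = 0.00214). In Rak-2 it had 5.92, 4.39 and 6.61 CPM under NH4+, against 5.09, 2.72 and 2.90 CPM under NO3-, and under NH4+ its level in Or-1 exceeded that in Rak-2 by 2.31 (SE 0.38, edgeR FDR = 0.00120). GH3.1 had 15.9, 14.3 and 7.39 CPM in Or-1 under NH4+, against 2.87, 2.98 and 1.19 CPM in Or-1 under NO3-, with a rise of 2.42 (SE 0.52, edgeR FDR = 0.00890). The other genes called in Or-1 were LBD16, LBD17 and PUCHI, transcription factors of lateral root formation, at 1.29, 1.43 and 1.51. Leaving out 1 library at a time ended the call of LBD17 in all 6 fits (1.11 to 1.69), and those of LBD16 (1.09 to 1.57) and PUCHI (1.19 to 2.03) in 4 of 6, without Or-1 under NH4+ replicate 1 or 2 or Or-1 under NO3- replicate 2 or 3. SAUR9, of a family of small auxin-induced proteins, was called between the ecotypes, with 3.79, 3.13 and 1.41 CPM in Or-1 under NH4+, against 0.402, 0.314 and 0.637 CPM in Rak-2 under NH4+ (log2 fold change 2.60, SE 0.72, edgeR FDR = 0.0241). Without replicate 1 or 2 of either of these groups SAUR9 was not called, with values of 2.31 to 2.93 over the 6 fits.

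LBD17 was called in the opposite direction between the ecotypes, with 1.17, 1.23 and 1.26 CPM in Or-1 under NH4+, against 3.41, 3.296 and 2.89 CPM in Rak-2 under NH4+. Its log2 fold change there was -1.39 (SE 0.38, edgeR FDR = 0.0232), and of the 6 fits without a library (-1.45 to -1.33) only that without Rak-2 under NH4+ replicate 3 kept the call. Under NO3-, LBD17 had 0.551, 0.213 and 0.574 CPM in Or-1, against 2.23, 0.892 and 1.48 CPM in Rak-2, a log2 fold change of -1.74 (SE 0.42, edgeR FDR = 0.0169) that lost its call without Or-1 under NO3- replicate 2 or Rak-2 under NO3- replicate 1 (-2.04 to -1.39 over the 6 fits). LBD17 was thus lower in Or-1 under both nitrogen forms, with no overlap.

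The response of these genes differed between the ecotypes by the interaction test for 1 of 17, SAUR76, with a difference of 1.93 (SE 0.40, edgeR FDR = 0.0424) that was 1.70 to 2.12 over 12 fits leaving out a library each and was called in 2 of them. It had 3.01, 3.44 and 3.89 CPM in Or-1 under NH4+, against 2.21, 1.86 and 2.78 CPM in Or-1 under NO3-, and 4.22, 2.09 and 4.16 CPM in Rak-2 under NH4+, against 9.07, 9.96 and 7.60 CPM in Rak-2 under NO3-. SAUR76 fell in Rak-2 by 1.34 (SE 0.28, edgeR FDR = 0.0114), and under NO3- it was called between the ecotypes at -1.95 (Or-1 over Rak-2, SE 0.29, edgeR FDR = 0.000736), in all 6 fits without a library as well. LBD16, LBD17, PUCHI and SAUR76 were named after their values were seen. For GH3.1, GH3.2 and GH3.3 the difference between the ecotypes' responses was 1.41, 1.83 and 1.55 on the log2 scale and did not pass the test (edgeR FDR = 0.331, 0.248 and 0.163), so that a call in Or-1 and not in Rak-2 does not show unequal responses.

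**Figure D5:**
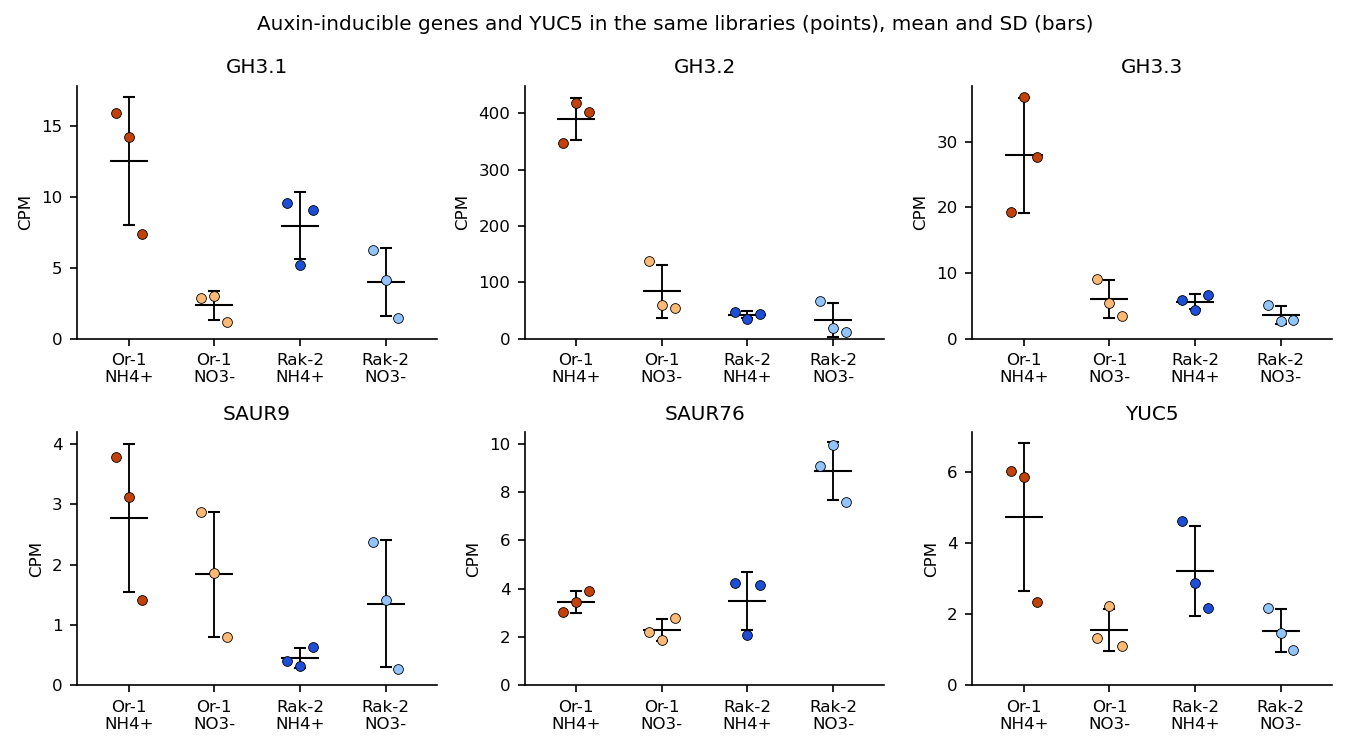
CPM (y axis, linear from 0, scaled for each gene) of GH3.1, GH3.2, GH3.3, SAUR9, SAUR76 and YUC5 in the 4 groups (x axis). Points are libraries, replicates 1 to 3 from left to right, and bars are the mean ± SD (n = 3). GH3.2 lies at 347.1 to 418.9 CPM in Or-1 under NH4+, the other libraries lie at or below 138.4 CPM, and SAUR76 is highest in Rak-2 under NO3-.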

How the data were processed

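RNA was sequenced from roots in 12 libraries, 3 biological replicates in each of 4 groups, after preparation with a NEBNext Ultra kit. The authors deposited a table of whole-number counts per gene for these libraries, not normalized, with a gene length in bases. The aligner, the counting program and the genome build were not given in the sources used here. The deposited gene length equalled the longest transcript of the RefSeq annotation of TAIR10.1 for 81.4% of the 25670 identifiers shared with it and for 8 of the 9 members measured, and that annotation was used for names and sequences only. Of the deposited files, 3 tables of the authors' own comparisons, with FPKM per library, log2 ratios and FDR, were not used.

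Counts were filtered with filterByExpr (minimum count 10, minimum total 15), scaled with TMM and fitted over all 12 libraries with 1 coefficient per group in edgeR 4.0.16 (R 4.3.3). P-values of the quasi-likelihood F test were adjusted by Benjamini-Hochberg over all genes tested, and a gene was called at an FDR under 0.05 and a log2 fold change over 1 in size. CPM used the TMM library sizes, FPKM was CPM divided by the deposited length in kilobases, and log2 CPM had a prior count of 2. The script was run on simulated data with 200 changed genes. The simulated replicates were drawn independently from gene to gene, unlike the libraries here, and the outcome is not given. At these depths 1 count was 0.0441 to 0.0698 CPM, so that values rest on sampling error of counts plus the spread of 3 replicates. No 2 libraries of the same group agreed within sampling noise.

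The members and lists were chosen with earlier results of these data known. All 9 measured members were reported. From each other list, the rule was to name the 4 genes at most with the largest log2 fold change among those called. Genes named outside this rule included LBD16, LBD17, PUCHI, SAUR76 and GH3.17 of the auxin-inducible genes. They also included TAR2 and YUC6 of auxin synthesis, and IAA9, IAA10, IAA18, IAA30 and IAA32 of the other Aux/IAA genes. Same-numbered libraries, from the replicate numbers in the labels, deviated together for Or-1 under NH4+ and NO3- (r = 0.30 to 0.45) and for the ecotypes under NH4+ (r = 0.22 to 0.34). The study states no pairing of libraries, and whether the numbers mark one was not tested. For Rak-2 under NH4+ and NO3-, r was 0.14, -0.03 and 0.30 for replicates 1, 2 and 3. For the ecotypes under NO3- it was 0.495, 0.05 and 0.54. Replicate 2 thus did not deviate together in either, while replicates 1 and 3 had a higher r. Alternatives were other scaling factors, DESeq2 1.42.0, no filter, FDR alone, glmTreat, the libraries compared alone, a replicate block and leaving out each library. Figures were drawn with matplotlib 3.10.9.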

Additional observations from a re-analysis of the deposited data

Results flagged for a closer look

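The response of SAUR76 to NH4+ differed between the ecotypes. By the interaction term in edgeR over all 12 libraries, its log2 fold change in Or-1 exceeded that in Rak-2 by 1.93 (SE 0.40, edgeR FDR = 0.0424). SAUR76 averaged 3.45 CPM in Or-1 under NH4+ and 2.28 CPM in Or-1 under NO3-, and 3.49 CPM in Rak-2 under NH4+ and 8.88 CPM in Rak-2 under NO3-. Under NO3- the log2 fold change of Or-1 over Rak-2 was -1.95 (edgeR FDR = 0.000736). The difference was 1.70 to 2.12 when each library was left out in turn, and it was called in 2 of these 12 fits, those without Or-1 NH4+ replicate 1 and without Rak-2 NO3- replicate 3. No member of the Aux/IAA genes met a rule of this kind.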

How the results depend on the processing

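The members called in Or-1 numbered 0 in place of 1 under glmTreat against a log2 fold change of 1, and 0 to 1 when each library was left out (0 without Or-1 NH4+ replicate 2, Or-1 NO3- replicate 2 or Or-1 NO3- replicate 3). In Rak-2 they numbered 2 in place of 1 with DESeq2, which added IAA14, 0 under glmTreat, and 0 to 3 when each library was left out (0 without Rak-2 NH4+ replicate 1 or 2 or Rak-2 NO3- replicate 1, and 3 without Rak-2 NO3- replicate 3, namely IAA2, IAA14 and IAA19). The counts for the ecotypes and for the difference were 0 under every alternative run. IAA19 in Or-1 and IAA2 in Rak-2 kept their direction under all alternatives. With a replicate block, IAA3 in Rak-2 turned to 0.014 over 4 groups and 0.067 over the libraries compared (an alternative added after the data were seen). The block fit over the libraries compared ended the calls of LBD17 in Or-1 (1.49) and SAUR76 in Rak-2 (-1.39). The block changed no call of a member, with 1 call in Or-1 and 1 in Rak-2. Fitting the libraries compared alone ended the Or-1 calls of YUC5 (FDR 0.0552), LBD16 (0.0523), LBD17 (0.0676) and PUCHI (0.0827) and that of LBD17 between the ecotypes under NO3- (0.122), and upper-quartile factors ended that of PUCHI. For IAA1 the difference between ecotypes turned to -0.091 with upper-quartile factors and -0.12 with library size alone. Scaling by library size alone moved the median of all genes in Rak-2 to 0.11, against -0.01, and the split of its calls to 687 higher and 545 lower, against 519 and 658; it moved the median difference to -0.14. Leaving out each library turned the sign of these log2 values, none of them called: in Or-1, IAA1 (-0.27 to 0.10) and IAA7 (-0.086 to 0.68); in Rak-2, IAA1 (-0.38 to 0.081) and IAA3 (-0.56 to 0.70); between the ecotypes under NH4+, IAA3 (-0.47 to 0.10) and IAA7 (-0.032 to 0.62); under NO3-, IAA2 (-0.33 to 0.085), IAA3 (-0.025 to 1.25), IAA7 (-0.99 to 0.022), IAA14 (-0.21 to 1.02), IAA19 (-0.51 to 0.19) and IAA29 (-1.02 to 0.23); and for the difference, IAA1 (-0.23 to 0.28), IAA14 (-0.070 to 1.17) and IAA17 (-0.20 to 0.037). SAUR76 was not called for the difference with upper-quartile factors or library size alone (1.79 with the second). The cause of these changes was not tested. At 2 to 25 counts a library, the depth limits what can be said of IAA5 and IAA29. It also limits the called genes LBD17 and SAUR9, which rested on few counts in their low groups. LBD17 was at 0.213 CPM in Or-1 NO3- replicate 2, where 1 count was 0.0532 CPM. SAUR9 was at 0.314 CPM in Rak-2 NH4+ replicate 2, where 1 count was 0.0523 CPM.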
